A study of Homo sapiens with 6 samples.

Results

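A set of 10 genes of fatty acid uptake, activation and mitochondrial oxidation were followed in 1205Lu cells, an established line from a human metastatic melanoma. The genes were CD36, ACSL1, ACSL3, ACSL4, CPT1A, CPT2, ACADVL, ACADM, HADHA and HADHB, chosen by symbol as the pathway supplied by fatty acid binding proteins such as PMP2. All 10 were among the 23368 genes of the count table. Cells in 3 flasks were transfected transiently with pCMV6-SOX10, a plasmid for expression of the neural crest transcription factor SOX10, and cells in 3 control flasks with pCMV6, the plasmid without an insert. Every flask received 7.8 µg of plasmid DNA with FuGENE 6 and was lysed after 24 h, and all 6 RNA libraries were made from 125 ng of total RNA. The share of cells that took up plasmid was not given, so a change in a few cells and a small change in all of them cannot be told apart. The same holds for bulk RNA in general, in which fewer cells of a kind and less RNA per cell look alike.

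Long-chain fatty acids enter cells in part through the membrane glycoprotein CD36 and travel in the cytosol on binding proteins. Acyl-CoA synthetases of the ACSL family join them to coenzyme A, which traps and activates them. CPT1 exchanges the coenzyme A for carnitine at the outer mitochondrial membrane, CPT2 reverses the exchange inside, and the acyl-CoA is then shortened by repeated cycles of dehydrogenation, hydration, oxidation and thiolysis. Activated fatty acids can instead be built into membrane lipids and lipid droplets.

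The libraries were shallow, with 2544420 to 4167393 reads assigned to genes in the SOX10 libraries and 867917 to 2066520 in the controls, so 1 read stood for 0.24 to 0.40 CPM (read counts per 1000000 reads, scaled by TMM) in SOX10 libraries and 0.49 to 1.15 CPM in controls. Reads outside genes numbered 93.5, 121 and 122 per 100 assigned reads in SOX10 replicates 1 to 3, and 125, 135 and 97.0 in control replicates 1 to 3. SOX10 itself had 81, 47 and 143 reads in the SOX10 libraries against 15, 18 and 44 in the controls, with a fitted log2 change of 0.35 (SE 0.27, adjusted p = 0.927 by edgeR's quasi-likelihood test), so it could not serve as a check of the labels. Leaving out SOX10 replicate 3 brought the SOX10 value to 0.030. PMP2, the study's gene of interest, had 66, 53 and 103 reads against 0, 1 and 4. The 14 listed markers of the melanocyte lineage had a summed level of 1378 to 1544 CPM in SOX10 libraries and 1369 to 1500 CPM in controls. Of these 8 were abundant enough for a test, while the pigment markers PMEL, MLANA, TYR, DCT and TYRP1 and the secreted marker MIA had at most 19 reads each over all libraries. Lists for adipocytes and for liver and muscle, tissues rich in fatty acid oxidation, reached at most 18.8 and 6.92 summed CPM in any library, and that for endothelium and platelets 28.7. Other lists were higher. Leukocyte markers summed to 200 to 493 CPM in SOX10 libraries and 260 to 626 CPM in controls, with CD68 alone at means of 353 and 443 CPM. The other 9 leukocyte markers had at most 32 reads each over all libraries. Keratinocyte and epithelium markers summed to 123 to 139 CPM in SOX10 libraries and 118 to 126 CPM in controls. Most of this sum was DSP, at means of 69.0 and 61.2 CPM, and KRT18, at 47.5 and 42.8 CPM, in SOX10 and control libraries. Of the 12 markers in this list 9 had at most 21 reads each over all libraries.

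No member passed the test for a difference between SOX10 and control libraries. Of the 10 members 9 had enough reads for edgeR's quasi-likelihood test and 0 passed at an adjusted p under 0.05, where 0.112% of 10678 tested genes passed. At an unadjusted p under 0.05 the count was also 0, beside 6.23% of tested genes, and in 0 of the 9 did the libraries of 1 group lie outside the range of the other, which held for 11.8% of tested genes, 5.72% with SOX10 libraries higher and 6.03% with SOX10 libraries lower. DESeq2 and limma-voom likewise called 0 members. Log2 fold changes ran from -0.09 for ACADM to 0.21 for CPT2, with 7 positive and 2 negative. Their median was 0.067, and ran from 0.028 without SOX10 replicate 3 to 0.11 without SOX10 replicate 2, beside 0.0076 over all tested genes, of which 51.3% were positive. Adjusted p-values by edgeR lay between 0.932 and 0.992. The precision of these comparisons followed the level of the gene. For ACSL3, ACSL4 and HADHA the upper 95% confidence limits of the fold were 1.25, 1.26 and 1.24, whereas those of CPT1A and CPT2 were 1.82 and 1.90.

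**Figure D1:**
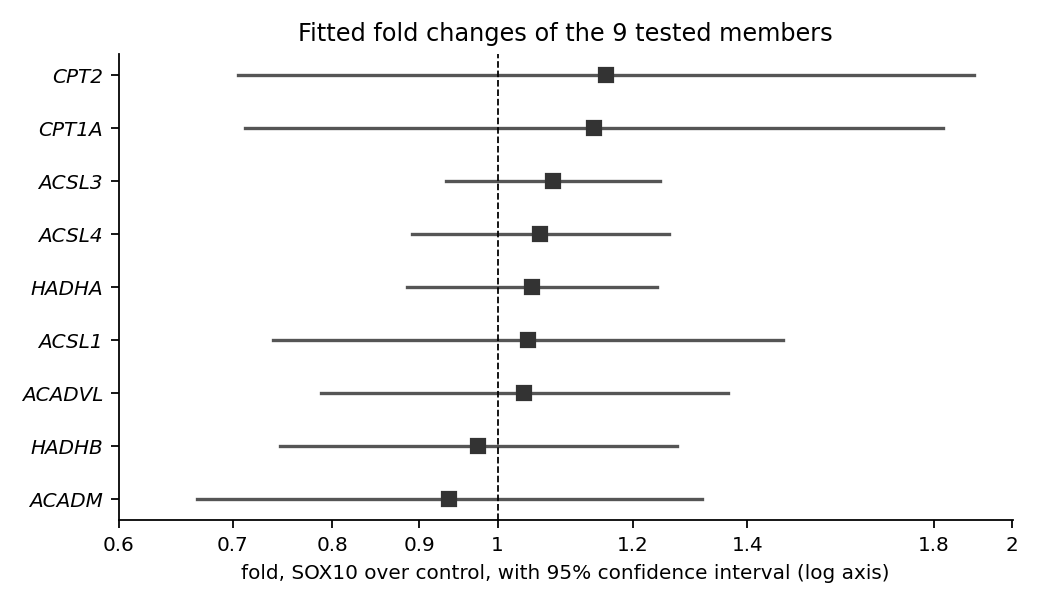
Fitted fold of each tested member, SOX10 libraries over control libraries, on a log axis. Squares are edgeR estimates from 3 libraries per group, lines their 95% confidence intervals, and the dashed line marks a fold of 1, which every interval contains.

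Levels differed far more between members than between groups. Per kilobase of transcript (median coding transcript of GENCODE release 29), ACSL3 stood at 321 ± 27.0 CPM per kilobase in SOX10 libraries and 297 ± 42.0 in controls (SD, n = 3 each). Its mean level exceeded that of all but 211 of 17561 genes with a coding length. HADHA followed at 54.6 ± 3.77 and 51.8 ± 4.27 CPM per kilobase in SOX10 and control libraries. ACSL4, HADHB and ACADVL came next, between 19.2 and 25.2 CPM per kilobase in both groups. ACADM and ACSL1 lay between 7.78 and 10.4, CPT1A and CPT2 between 3.90 and 5.00, and CD36 at 1.22 and 1.04 CPM per kilobase in SOX10 and control libraries. The median gene stood at 2.62. Among neighbours in this order, ACSL4 exceeded HADHB in 4 of 6 libraries and CPT1A exceeded CPT2 in 4 of 6, so these pairs were not separated. Each of the other 7 neighbouring pairs kept its order in 6 of 6 with the median length. The order of CPT1A and CPT2 depended on the length used. With the longest coding transcript, CPT1A had 2.38 and 2.03 CPM per kilobase in SOX10 and control libraries, below CPT2 at 3.82 and 3.39. HADHB exceeded ACADVL by as little as 1.02 times in 1 library. With the longest transcript HADHB was below ACADVL in SOX10 replicate 3, at 20.5 against 21.1 CPM per kilobase. CPT1A was then below CD36 in control replicate 1, at 1.69 against 1.87.

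**Figure D2:**
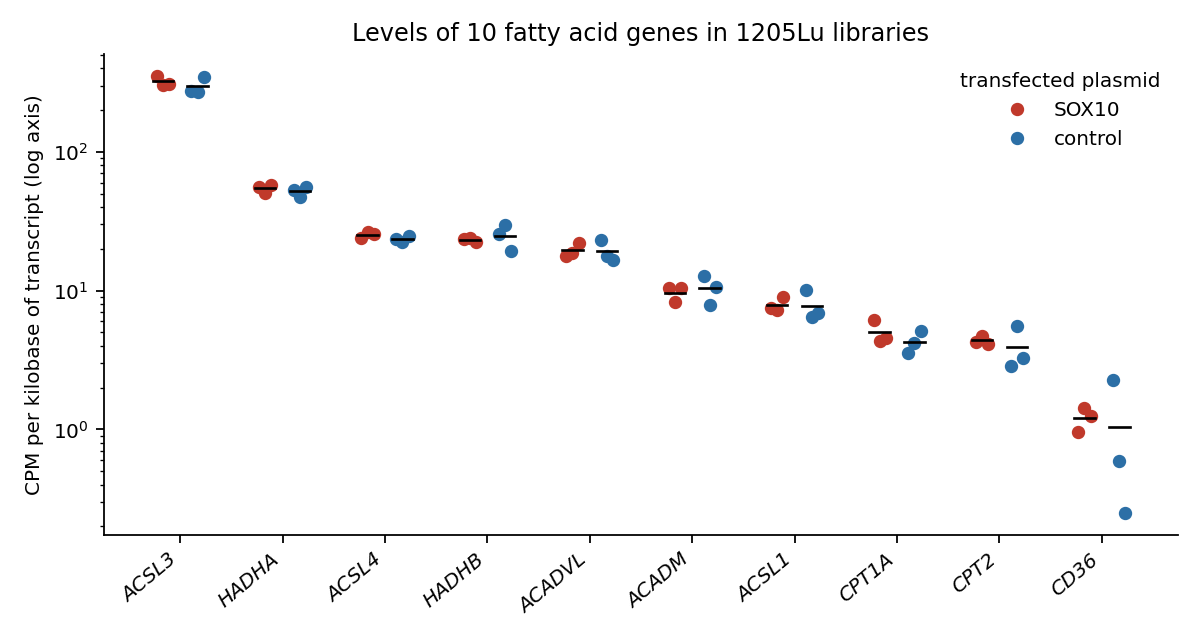
Level of each of the 10 members per kilobase of transcript (log axis), with 1 point per library and a black bar at the mean of 3 libraries, SOX10 in red and control in blue. The members span from ACSL3, near 300 CPM per kilobase, to CD36, near 1, and the groups overlap in each gene.

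CD36, which takes up long-chain fatty acids in muscle, fat and macrophages, was close to the limit of detection. It had 7, 7 and 10 reads in SOX10 replicates 1 to 3 and 4, 1 and 1 reads in control replicates 1 to 3. With the reads of each group pooled, this was 24 of 10444612 reads, or 2.30 CPM of the unscaled total with an exact Poisson 95% interval from 1.47 to 3.42, in SOX10 libraries, and 6 of 3860015, or 1.55 CPM with an interval from 0.570 to 3.38, in controls. These intervals cover counting error only. CD36 did not reach the read minimum of the test. Fitted without that minimum, its log2 fold change was 0.46 (SE 0.90, adjusted p = 0.950 by edgeR), and the interval of the fold, from 0.404 to 4.65, contained 1 and reached further above it than below.

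The 3 long-chain acyl-CoA synthetases were expressed at very unequal levels. ACSL3, which acts at the endoplasmic reticulum and on nascent lipid droplets, had 1551, 1327 and 1368 CPM in SOX10 replicates 1 to 3, against 1208, 1198 and 1524 CPM in control replicates 1 to 3. Replicate 3 of the controls thus lay with the SOX10 libraries and above 2 of them. The log2 fold change was 0.11 (SE 0.10, adjusted p = 0.932 by edgeR). The 2 highest ACSL3 levels were those of SOX10 replicate 1 and control replicate 3, the libraries with the fewest reads outside genes. The 2 lowest belonged to control replicates 1 and 2, which had the most. The part of reads outside genes in the ACSL3 level was not tested. With reads outside genes as a covariate the log2 fold change was 0.063, and without SOX10 replicate 1 and control replicate 3 it was 0.16. It was 0.24 without control replicate 3, with an adjusted p of 0.792 by edgeR, and 0.035 without SOX10 replicate 1. Replicates of ACSL3 spread beyond counting error, with a coefficient of variation of 8.42% in SOX10 libraries and 14.1% in controls where read numbers alone give 1.47% and 2.71%.

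ACSL4, which prefers arachidonic acid and other polyunsaturated fatty acids and is known for its role in ferroptosis, had 124, 139 and 133 CPM in SOX10 replicates 1 to 3 and 124, 118 and 130 CPM in control replicates 1 to 3. Groups overlapped, and the log2 fold change was 0.08 (SE 0.12, adjusted p = 0.949 by edgeR). ACSL1, the main synthetase of fat and oxidative tissues, had 24.2 ± 2.73 CPM in SOX10 libraries and 23.8 ± 6.20 CPM in controls (SD, n = 3 each), and its log2 fold change was 0.06 (SE 0.24). Within each library, ACSL3 made up 89.9% to 91.8% of the summed reads per kilobase of the 3 genes in SOX10 libraries and 89.0% to 91.6% in controls. The share of ACSL4 was 6.20%, 7.94% and 7.39% in SOX10 replicates 1 to 3 and 7.70%, 7.49% and 6.58% in control replicates 1 to 3. These shares do not depend on library scaling, and they differed by -0.084 percentage points between the means (exact two-sided permutation test, p = 0.9, with 0.1 the smallest p that 3 against 3 libraries allow). The sign of that difference changed without SOX10 replicate 1 or control replicate 1 or 2. Other members of the family, named after their values were seen, were rarer, with 9 and 5 reads in all for ACSL5 and 42 and 6 for ACSL6 in SOX10 and control libraries.

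Promoter windows were taken from RefSeq on GRCh38.p14 (250 bases before to 50 after each listed start). Shown is 1 window each of ACSL3, the most abundant member, CD36, the rarest, and ACSL1, the 1 synthetase with a SOX core motif. All 10 members matched at least 1 window, 20 windows in all. Both strands were searched for ACAAAG and ACAATG, core motifs bound by SOX proteins, for CCAAT and GGGCGG, common promoter boxes, and for AGGTCA, the half-site of PPAR, RXR and other nuclear receptors. Capitals mark matches to any of these, and no match overlapped one of a different motif. Of the CD36 windows only that shown holds a match. The ACSL3 window lies at chr2:222860786-222861085 on the plus strand, that of ACSL1 at chr4:184808482-184808781 on the minus strand (1 of 5 listed for the gene) and that of CD36 at chr7:80645999-80646298 on the plus strand (1 of 6).
ACSL3: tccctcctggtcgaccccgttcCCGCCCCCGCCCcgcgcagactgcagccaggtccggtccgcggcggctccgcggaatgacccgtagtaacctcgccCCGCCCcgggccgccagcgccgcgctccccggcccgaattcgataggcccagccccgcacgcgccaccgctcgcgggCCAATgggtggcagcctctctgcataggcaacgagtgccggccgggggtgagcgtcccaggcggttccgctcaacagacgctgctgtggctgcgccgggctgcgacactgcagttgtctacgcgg
ACSL1: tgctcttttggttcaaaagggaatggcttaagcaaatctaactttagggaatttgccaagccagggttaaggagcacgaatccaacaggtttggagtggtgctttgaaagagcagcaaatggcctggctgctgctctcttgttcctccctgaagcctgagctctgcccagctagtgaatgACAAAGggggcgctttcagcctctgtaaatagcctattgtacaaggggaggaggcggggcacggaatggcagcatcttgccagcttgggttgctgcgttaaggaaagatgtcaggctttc
CD36: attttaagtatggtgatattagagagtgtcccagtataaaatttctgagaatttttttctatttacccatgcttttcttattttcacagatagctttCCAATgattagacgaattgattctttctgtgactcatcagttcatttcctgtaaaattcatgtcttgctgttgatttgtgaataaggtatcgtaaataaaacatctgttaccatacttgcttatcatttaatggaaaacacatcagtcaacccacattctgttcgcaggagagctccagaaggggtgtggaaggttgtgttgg

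In the ACSL3 window 3 GGGCGG boxes and 1 CCAAT box were found, and 74.0% of its bases were G or C, against a median of 58.7% over all 35116 windows. The 6 CD36 windows ranged from 35.0% to 43.7%. The ACSL1 window shown had 51.0%, and another ACSL1 window, not shown, had 82.3% and 6 GGGCGG boxes. ACAAAG was present in 2 of the 20 member windows, 1 of ACSL1 and 1 of ACADVL, and in 16.1% of all windows. ACAATG was present in 1 member window, of ACSL1, and in 10.8% of all. GGGCGG was found in 9 member windows from 8 genes and in 45.0% of all, CCAAT in 3 and in 34.6%, and AGGTCA in 0 member windows and in 13.8% of all. These matches describe letters in the windows and are not binding sites.

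The carnitine palmitoyltransferases were low, and neither passed the test. CPT1A, the liver-type form of the step that controls entry into mitochondria, had 57, 27 and 47 reads in SOX10 replicates 1 to 3 and 8, 9 and 26 reads in control replicates 1 to 3. This was 12.5 ± 2.44 CPM in SOX10 libraries and 10.6 ± 1.93 CPM in controls (SD, n = 3 each), and the log2 fold change was 0.19 (SE 0.33, adjusted p = 0.962 by edgeR). SOX10 replicate 1 was the highest library and control replicate 1 the lowest, and the other 4 were mixed. The value was 0.011 without SOX10 replicate 1. CPT2, the enzyme of the inner membrane, had 43, 32 and 46 reads in SOX10 replicates 1 to 3 and 7, 13 and 18 in control replicates 1 to 3, for 11.8 ± 0.85 CPM in SOX10 libraries and 10.5 ± 3.92 CPM in controls (SD, n = 3 each). Control replicate 2 was above and the other 2 controls below all SOX10 libraries, and the log2 fold change of 0.21 (SE 0.35) became 0.48 without that library, 0.085 without control replicate 1 and 0.057 without control replicate 3. In GENCODE release 29, 12.0% of the exonic bases of CPT2 are shared with genes on the opposite strand. Whether reads were counted by strand is not stated in the labels, and the CPT2 values are uncertain to that extent. The muscle form CPT1B was listed at 0 in all libraries, but 66.4% of its exonic bases are shared with the read-through gene CHKB-CPT1B, whose reads cannot be assigned to 1 gene, so this 0 says little about CPT1B. The brain form CPT1C had 17 reads in SOX10 libraries and 4 in controls. Both forms were named after their values were seen.

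The acyl-CoA dehydrogenases carry out the first step of each cycle, ACADVL on very long and long chains and ACADM on medium chains. ACADVL had 39.4, 41.9 and 48.9 CPM in SOX10 replicates 1 to 3 and 52.0, 39.2 and 37.1 CPM in control replicates 1 to 3, so that both the highest and the lowest library were controls. Its log2 fold change was 0.05 (SE 0.19). ACADM had 24.4, 19.5 and 24.5 CPM in SOX10 replicates 1 to 3 and 29.9, 18.5 and 24.9 CPM in control replicates 1 to 3, again with the controls at both ends, and its log2 fold change was -0.09 (SE 0.24). The adjusted p by edgeR was 0.987 for ACADVL and 0.974 for ACADM. Without control replicate 3 the value of ACADVL was -0.068, and without control replicate 1 that of ACADM was 0.034.

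HADHA and HADHB encode the alpha and beta subunits of the mitochondrial trifunctional protein, which completes the cycle on long chains. The genes lie head to head on chromosome 2, with 306 bases between the RefSeq starts, and their promoter windows share 194 bases. The HADHB window, at chr2:26244689-26244988 of GRCh38.p14 on the plus strand, is shown because it contains the stretch common to both windows. Capitals mark the part that also belongs to the window of HADHA, which runs in the opposite direction.
HADHB: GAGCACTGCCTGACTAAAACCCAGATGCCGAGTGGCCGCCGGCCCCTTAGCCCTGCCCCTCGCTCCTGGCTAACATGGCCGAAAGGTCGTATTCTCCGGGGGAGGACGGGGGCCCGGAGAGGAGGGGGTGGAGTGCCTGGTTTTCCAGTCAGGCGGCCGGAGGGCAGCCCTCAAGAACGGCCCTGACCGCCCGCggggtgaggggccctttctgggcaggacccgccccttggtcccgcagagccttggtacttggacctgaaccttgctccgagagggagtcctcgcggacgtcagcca

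HADHA had 167, 150.0 and 171 CPM in SOX10 replicates 1 to 3 and 157, 141 and 166 CPM in control replicates 1 to 3. HADHB had 46.3, 46.7 and 43.8 CPM in SOX10 replicates 1 to 3 and 49.8, 57.7 and 37.5 CPM in control replicates 1 to 3. Neither subunit was separated by group. The log2 fold change was 0.07 (SE 0.12) for HADHA and -0.04 (SE 0.19) for HADHB, with adjusted p-values by edgeR of 0.962 and 0.992. The SOX10 libraries were close for HADHB, with a coefficient of variation of 3.38% where counting error alone gives 8.13%, against 21.0% and 13.6% in the controls. CPT2 had 7.19% against 15.9% in SOX10 libraries. Whether so small a spread is unusual for 3 libraries was not tested.

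Reads per kilobase of HADHA exceeded those of HADHB in each library. The ratio was 2.36, 2.11 and 2.56 in SOX10 replicates 1 to 3 and 2.07, 1.60 and 2.90 in control replicates 1 to 3. On the log2 scale it was 1.23 ± 0.14 in SOX10 libraries and 1.09 ± 0.43 in controls (SD, n = 3 each), a difference of 0.14 that was smaller than the spread among controls (exact two-sided permutation test, p = 0.6). Leaving out control replicate 2 made the difference -0.067, and leaving out control replicate 3 made it 0.36. Control replicate 3, with 97.0 reads outside genes per 100 assigned reads, had the highest ratio, and control replicate 2, with 135, the lowest. The SOX10 libraries did not follow that order, since replicate 1, with 93.5, had a lower ratio than replicate 3, with 122. The part of reads outside genes in this ratio was not tested. Length assumptions enter the ratio, and GENCODE release 29 lists 2 pseudogenes named after HADHA, HADHAP1 and HADHAP2, whose reads may not be separable from those of the gene.

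**Figure D3:**
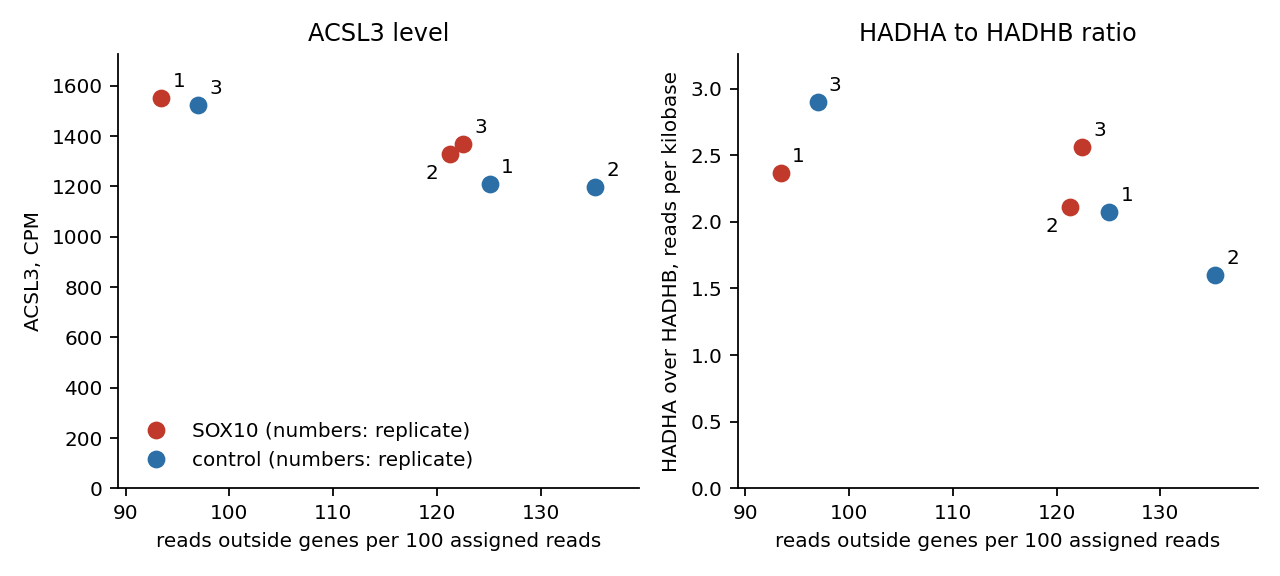
ACSL3 level in CPM (left) and the ratio of HADHA to HADHB reads per kilobase (right) against reads outside genes per 100 assigned reads, with 1 point per library, SOX10 in red, control in blue and replicate numbers beside the points. SOX10 replicate 1 and control replicate 3, at 93.5 and 97.0 reads outside genes, have the highest ACSL3 levels, 1551 and 1524 CPM.

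Around the members, 148 further genes of fatty acid metabolism were listed in 7 groups, and 95 of them were tested. By edgeR 1 rose, PMP2, and 1 fell, TXNIP, where 0.00937% of all tested genes rose and 0.103% fell. DESeq2 and limma-voom called the same genes. PMP2 was the only gene called as higher among all 10678 tested by edgeR, so the share that rose is PMP2 itself. The lists were chosen with earlier results of these data known, so these counts do not measure enrichment. An unadjusted p under 0.05 by edgeR was found for 4 of the 95, namely PMP2, TXNIP, ETFB and ABHD5, beside 6.23% of all tested genes. Of 12 tested genes of fatty acid uptake and binding, PMP2 rose by 3.99 on the log2 scale (SE 0.49, adjusted p = 0.000103 by edgeR). The rise was 3.61 when control replicate 1 was left out and 5.12 when control replicate 3 was left out, and PMP2 was called each time. Of 5 tested acyl-CoA synthetases outside the ACSL members 0 passed. ACSS1, which activates acetate in mitochondria, had -0.36 (SE 0.25) and AASDH 0.50 (SE 0.33), with adjusted p-values of 0.915 and 0.913 by edgeR.

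Of 15 tested genes of the carnitine shuttle and its control by malonyl-CoA 0 passed, with a median log2 fold change of -0.03. ACACA, whose product malonyl-CoA inhibits CPT1, had 0.29 (SE 0.15), and the carnitine transporter SLC22A5 had -0.75 (SE 0.48) on 11, 9 and 19 reads in SOX10 replicates 1 to 3 and 5, 4 and 16 in control replicates 1 to 3. Their adjusted p-values by edgeR were 0.836 and 0.892. Of 14 tested peroxisomal genes 0 passed. HACL1, of the alpha-oxidation of branched fatty acids, had 0.57 (SE 0.31), and SCP2, with thiolase and lipid transfer activity, 0.42 (SE 0.25), with adjusted p-values of 0.871 and 0.882. The SCP2 value was 0.70 when control replicate 2 was left out and 0.13 when control replicate 3 was. Of 14 tested genes of triglyceride stores and thioesterases 0 passed. ABHD5, the activator of the triglyceride lipase PNPLA2, had 61.7 ± 2.88 CPM in SOX10 libraries and 78.7 ± 3.89 CPM in controls (SD, n = 3 each). On the log2 scale this was -0.35 (SE 0.15, adjusted p = 0.717 by edgeR). Its groups did not overlap, which held for 11.8% of all tested genes. The thioesterase gene ACOT13 had 0.30 (SE 0.16) and an adjusted p of 0.836. Groups did not overlap either for AASDH, SLC22A5, HACL1 and ACOT13, nor for NCOR1 and MCEE below.

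Among 13 tested regulators of the PPAR pathway and genes known as its targets, TXNIP, an inhibitor of thioredoxin and of glucose uptake, fell by 0.83 on the log2 scale (SE 0.15, adjusted p = 0.0119 by edgeR). It had 66.7, 72.6 and 57.4 CPM in SOX10 replicates 1 to 3 and 107, 137 and 107 CPM in control replicates 1 to 3. All SOX10 libraries were below all controls. The adjusted p by edgeR depended on single libraries more than the size of the fall did. The log2 fold change was -0.74 without SOX10 replicate 3 (adjusted p = 0.0694), -0.88 without control replicate 1 (adjusted p = 0.0636) and -0.71 without control replicate 2 (adjusted p = 0.0948). After thinning to equal depth it was -0.70 (adjusted p = 0.988). The corepressor gene NCOR1 had -0.16 (SE 0.09) and an adjusted p of 0.882. The median of this group was 0.027.

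The other enzymes of mitochondrial beta-oxidation and electron transfer had mostly positive values, without any call. Of 22 tested genes 0 passed by edgeR, and 1 had an unadjusted p under 0.05. A positive log2 fold change was found in 19 of the 22, beside 51.3% of all tested genes, and the median was 0.21. In 4 of the 22 the SOX10 libraries lay above all controls, beside 5.72% of all tested genes, and in 0 they lay below. The summed level of all listed genes of the group was 553 to 573 CPM in SOX10 libraries and 478 to 551 CPM in controls. ETFB, a subunit of the flavoprotein that takes electrons from the acyl-CoA dehydrogenases, had 116, 62 and 99 reads in SOX10 replicates 1 to 3 and 8, 22 and 30 reads in control replicates 1 to 3. This was 26.6 ± 3.89 CPM in SOX10 libraries and 16.3 ± 8.39 CPM in controls (SD, n = 3 each), with control replicate 2 above 2 of the SOX10 libraries. Its log2 fold change was 0.74 (SE 0.28) and its adjusted p by edgeR 0.648. MCEE, an epimerase in the breakdown of odd-chain fatty acids, had 0.99 (SE 0.57) on 3, 1 and 5 control reads, with an adjusted p of 0.876.

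Read depth also differed between the groups, with every SOX10 library deeper than every control. With all libraries thinned to the same total in a single random draw, 13 of the 22 genes were still tested, of which 6 had a positive value, with a median of -0.038. In the same 13 genes before thinning 11 were positive, with a median of 0.17. The 9 genes that dropped out had 8 positive values before thinning, with a median of 0.38. Over the 8590 genes tested both ways, 51.1% were positive before thinning and 49.7% after. The part of read depth in the positive values was not tested. Without control replicate 3, 15 of 22 were positive, with a median of 0.18, and without SOX10 replicate 3, 16 of 20, with a median of 0.13. Of the 9 tested members, which belong to the same and neighbouring steps, 7 were positive without thinning, with a median of 0.067. After thinning the median of the members was 0.15, with CPT2 no longer tested.

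**Figure D4:**
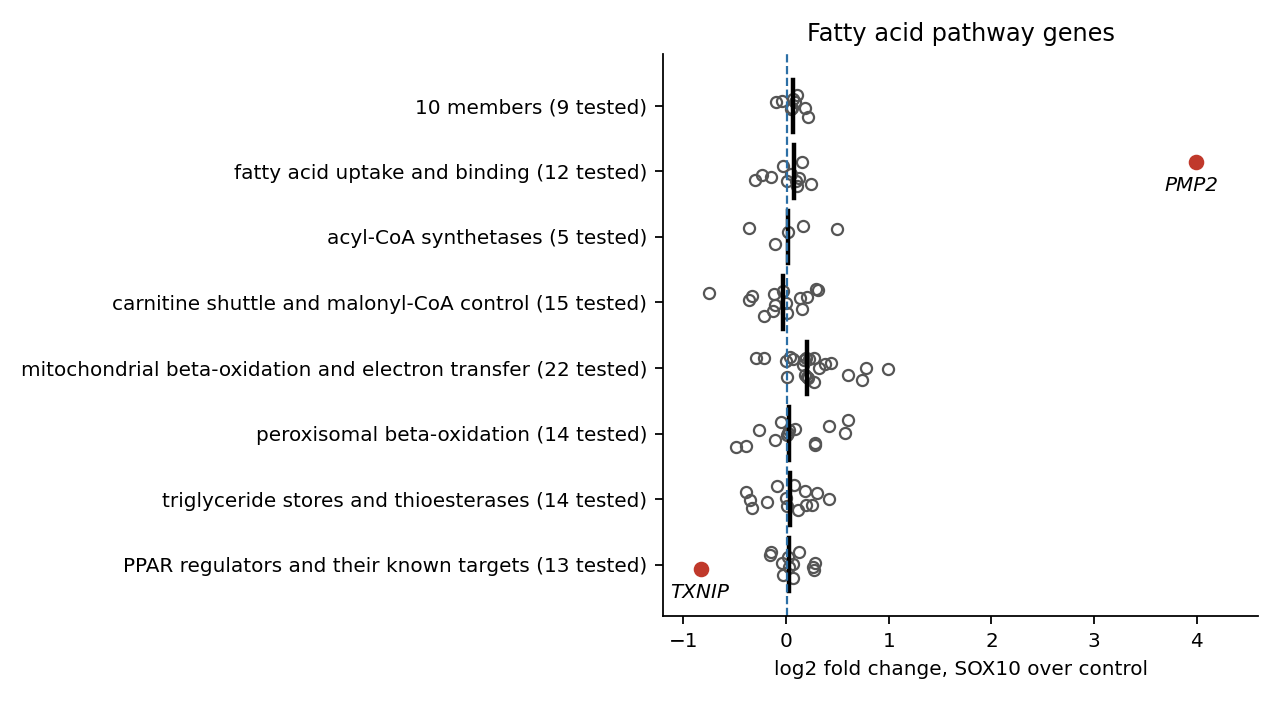
Log2 fold change (SOX10 over control) of each tested gene, by group, with the members in the top row. Open circles did not pass edgeR's test, filled red circles passed at an adjusted p under 0.05 (PMP2 and TXNIP), black bars are group medians, and the dashed line is the median of all tested genes, 0.0076. The row of mitochondrial beta-oxidation genes has the median farthest from that line, at 0.21.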

How the data were processed

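RNA was measured in 6 libraries, 3 per plasmid. The authors deposited raw read counts by gene symbol, as whole numbers without normalization. Per the submitters' processing notes, the build was hg19 and the tools included TopHat 1.4.0, HTSeq and DESeq. The gene annotation and strand setting are not stated in the labels. Totals and tests left out 5 class rows without a gene name. Reads outside genes made up 39.4% to 46.9% of records, reads in several places 17.7% to 19.1% and ambiguous reads 0.435% to 0.551%.

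The counts of all 6 libraries were fitted with edgeR 4.0.16 in R 4.3.3 (quasi-likelihood test, TMM, filterByExpr with a minimum count of 10 and a minimum total of 15, no covariate), with Benjamini-Hochberg adjustment over 10678 genes and a threshold of 0.05. Log2 fold changes use a prior count of 0.125, and standard errors and 95% intervals come from the F statistic. CPM use TMM-scaled totals of the tested genes. The median standard error over tested genes was 0.23 (log2), and the common biological coefficient of variation was 12.7%.

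The members, the lists and the tests were chosen with earlier results of these data known. Besides the members, SOX10 and PMP2, the text names the called genes of each list and its 2 genes of smallest p, except 1 that is not reported here. Replicates were not repeats of 1 library: chi-square over degrees of freedom was 2.11 to 7.03 for pairs within a group. The labels call the replicates biological. Alternatives were other scalings and filters, DESeq2 1.42.0, limma-voom (limma 3.58.1), a replicate block, reads outside genes as a covariate, thinning to equal depth, other transcript lengths and leaving out libraries. Coordinates and sequences are of GRCh38.p14, another build than that of the counts.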

Additional observations from a re-analysis of the deposited data

How the results depend on the processing

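No member was called by edgeR, DESeq2 or limma-voom under any of the 17 alternatives run, and log2 fold changes of the 9 tested members stayed between -0.25 and 0.49. The median of the tested members ran from 0.028 to 0.15. CPT1A, CPT2, HADHA and ACSL3 kept a positive sign in every alternative that tested them. Signs turned for values near 0. Thinning gave 0.39 for ACADM, -0.23 for ACSL1, -0.12 for ACSL4 and -0.0067 for SOX10. HADHB was 0.013 with limma-voom and 0.00031 with reads outside genes as a covariate. Without SOX10 replicate 1 and control replicate 3 the value was -0.0023 for ACADVL and -0.018 for ACSL1, and the ACSL4 share differed by 0.066 percentage points. Leaving out single libraries gave -0.22 to 0.034 for ACADM, -0.068 to 0.20 for ACADVL, -0.23 to 0.11 for HADHB and -0.056 to 0.25 for ACSL1. It gave -0.067 to 0.36 for the log2 ratio of HADHA to HADHB and -0.47 to 0.40 percentage points for the ACSL4 share.

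The 12 calls over all genes became 48 with no low-count filter, 43 with reads outside genes as a covariate, 7 without SOX10 replicate 1 and control replicate 3, and 0 after thinning, where 387 genes had an unadjusted p under 0.05. Leaving out single libraries gave from 6, without control replicate 1, to 18, without SOX10 replicate 1 or control replicate 2. In the list of uptake and binding 0 genes were called after thinning, where PMP2 was not tested, and in the PPAR list 0 after thinning, 0 to 1 without single libraries and 0 without SOX10 replicate 1 and control replicate 3. The cause of these changes was not tested, other than that thinning and left-out libraries leave fewer reads or samples.

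With the replicate number as a block 7 genes were called, and no member. Deviations of same-numbered libraries from their group means had correlations of -0.030, -0.033 and -0.14. Deviations within a group of 3 cancel by construction, so these values cannot exclude that the numbers pair the flasks. The labels do not state such a pairing. The exact p with the block was 0.5 for the HADHA to HADHB ratio and 1 for the ACSL4 share. For CPT1A, CPT2 and CD36 depth limits what could be seen.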
